A study of Homo sapiens with 6 samples.

Results

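The genes of SWI/SNF chromatin remodellers were examined for acetylated lysine (Kac) and benzoylated lysine (Kbz) in cells labelled HepG2, an established human line of liver tumour origin. The 10 genes, of 20007 protein-coding genes in all, were chosen by their membership of the complex, and the set was selected on 1 measured value besides: the peak over SMARCE1 is among the strongest of the Kac list from treated cells. That value is therefore described here and supports nothing. A peak belonged to a gene when it overlapped the gene body or the 5 kb to either side of it. By this rule the 10 genes held 80 of 70326 peaks of control Kac, 79 of 63282 of SB Kac and 20 of 24308 of SB Kbz. ARID1B alone held 49, 47 and 6 of these, so counts of peaks are given with and without it.

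ChIP-seq had been run with pan antibodies, which recognise the modified lysine whatever histone carries it, on chromatin cut with micrococcal nuclease. Control cells were untreated, and SB cells received 10 mM sodium benzoate for 24 h. The series has 6 libraries, an input, a Kac and a Kbz library from each condition, and thus 1 library per group. Peak lists of control Kac, of SB Kac and of SB Kbz were used. The labels state that control Kbz gave no peaks, and the inputs were not analysed here. With no replicates, a difference between lists has no error to be judged by. Sequencing depth was unknown, and a deeper library yields more peaks. The strength of a peak is its fold, the mean read density over the background of the peak caller as deposited. Since lists may differ in depth, fold is compared across lists only as a percentile within its own list.

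The HepG2 label was checked against marker genes, with a peak counted when it lay within 3 kb of the canonical transcription start site (TSS), the start of the transcript that Ensembl tags as canonical. Of 12 genes of liver products, 4 had such a peak with control Kac, 3 with SB Kac and 2 with Kbz, beside 72.9%, 71.9% and 60.3% of all protein-coding genes. ALB, APOB, AFP, TTR, SERPINA1, FGA, FGB and FGG had none in any list, while APOA1 and APOA2 had one in all 3, at percentiles of fold between 87.5 and 96.6. Of 7 liver transcription factors, 4, 4 and 3 had one, with HNF4A, FOXA2 and NR1H4 in none. CEBPA stood at percentiles 96.7, 98.3 and 96.6. Of 8 genes of kidney development 7 had a peak in each list, of 6 neuronal genes 2, 3 and 2, and of 5 blood genes 2, 3 and 1. Liver products were thus marked less often than protein-coding genes as a whole, and several defining liver genes were without peaks. Kidney development genes were marked more often than either, so these markers did not bear out the HepG2 label. The part of this in the values below was not tested.

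SWI/SNF complexes, also called BAF complexes, use ATP to slide or evict nucleosomes, and they keep promoters and enhancers accessible. SMARCA4 is an ATPase that drives the motor, and SMARCB1, SMARCC1, SMARCC2, SMARCD1 and SMARCE1 are core subunits around which the complex is built. ARID1A and ARID1B are alternative large subunits of canonical BAF, whereas ARID2 and PBRM1 belong to PBAF. Several subunits hold bromodomains, modules that bind acetylated lysine, and several are recurrently mutated in cancer, liver cancer included.

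Sequence at the start sites that show the main contrasts is printed first, 5′ to 3′ in the direction of transcription, without bases in an annotated UTR. Of the 250 bases upstream of each canonical TSS, taken from RefSeq (GRCh38.p14), entries were matched for 7 of the 10 genes, and SMARCC1, SMARCC2 and ARID2 are named only. SMARCE1 and PBRM1 are shown because their promoter peaks had the highest Kbz folds. The upstream window of SMARCE1 lies in UTRs of other transcripts, so 131 bases of intron just downstream of the start are given from hg38 (chr17:40647642-40647772, minus strand). For PBRM1 the run is the 98 bases between its own outermost start and the first UTR base of GNL3, its neighbour (chr3:52685918-52686015, minus strand). Both runs lay wholly inside peaks of all 3 lists. SMARCD1 and ARID1A are shown because Kbz left their canonical TSS uncovered. Of the 108 bases at SMARCD1 (chr12:50085092-50085199, plus strand) all lay under Kac in both conditions but only 23 under Kbz. At ARID1A (chr1:26695765-26696014, plus strand) all 250 bases lay under SB Kac, and 0 under control Kac or Kbz. Capitals mark matches on either strand to 7 motifs: GGGCGG (the GC box), CCAAT (the CCAAT box), CCGGAAG (an ETS site), CACGTG (an E-box), TATAAA (the TATA box), CATGCGC (part of an NRF1 site) and TGACG (a CRE half-site).
SMARCE1: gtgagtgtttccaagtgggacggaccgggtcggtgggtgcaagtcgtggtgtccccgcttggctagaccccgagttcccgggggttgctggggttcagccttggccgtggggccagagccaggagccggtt
PBRM1: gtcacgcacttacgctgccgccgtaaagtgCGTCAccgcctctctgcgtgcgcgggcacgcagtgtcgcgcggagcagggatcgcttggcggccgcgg
SMARCD1: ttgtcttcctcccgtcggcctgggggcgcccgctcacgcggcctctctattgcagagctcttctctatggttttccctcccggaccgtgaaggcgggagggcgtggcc
ARID1A: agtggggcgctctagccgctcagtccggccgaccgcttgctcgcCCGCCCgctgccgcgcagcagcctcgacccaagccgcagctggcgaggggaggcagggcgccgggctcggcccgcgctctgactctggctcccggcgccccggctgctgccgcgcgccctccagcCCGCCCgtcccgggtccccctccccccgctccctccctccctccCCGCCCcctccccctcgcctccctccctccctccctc

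The whole windows of 250 bases, UTRs included, differed widely in composition. The GC content was 54.4% for SMARCE1, 58.0% for SMARCB1, 63.6% for PBRM1, 70.4% for SMARCD1, 76.0% for ARID1B, 80.4% for ARID1A and 82.4% for SMARCA4. The median of the 7 was 70.4%, against 63.2% over 15344 protein-coding genes. The ratio of observed to expected CpG had a median of 1.03, with a range from 0.761 to 1.10, against 0.759 over those genes. SMARCE1, with the lowest GC content of the 7 windows, still had a CpG ratio of 1.08. In these whole windows the GC box was present in 5 of 7 (59.5% of all genes), the CCAAT box in 3 (34.9%), the CRE half-site in 3 (26.3%) and the E-box in 1 (7.91%). The ETS site (12.4% of all genes), the TATA box (9.08%) and the NRF1 letters (5.32%) were found in 0 of the 7 windows. SMARCE1, SMARCB1 and PBRM1 held the CCAAT box and the CRE half-site together, and SMARCE1 held a GC box as well. SMARCA4, SMARCD1, ARID1A and ARID1B held the GC box but neither the CCAAT box nor the CRE half-site. How often these motifs occur together over all genes was not counted. The windows of PBRM1 and SMARCE1 also hold the start of a gene on the opposite strand, so their matches cannot be assigned to either gene alone. A match is a run of letters and does not show that a factor was bound.

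All 10 genes had a peak within 3 kb of the canonical TSS in each of the 3 lists. Among all protein-coding genes 72.9% had one with control Kac, 71.9% with SB Kac and 60.3% with Kbz. In 8 of the 10 genes the TSS itself lay inside a peak of all 3 lists, against 44.8% of all protein-coding genes. ARID1A and SMARCD1 were the exceptions. For the strongest promoter peak the median percentile was 89.9 (control Kac), 89.3 (SB Kac) and 71.5 (Kbz). For all protein-coding genes with a peak there, the medians were 81.8, 85.3 and 67.7. The number of SWI/SNF genes above the latter medians was 8, 7 and 6. SMARCE1, selected by its SB Kac peak, is included in the SB Kac counts and median of this paragraph.

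**Figure D1:**
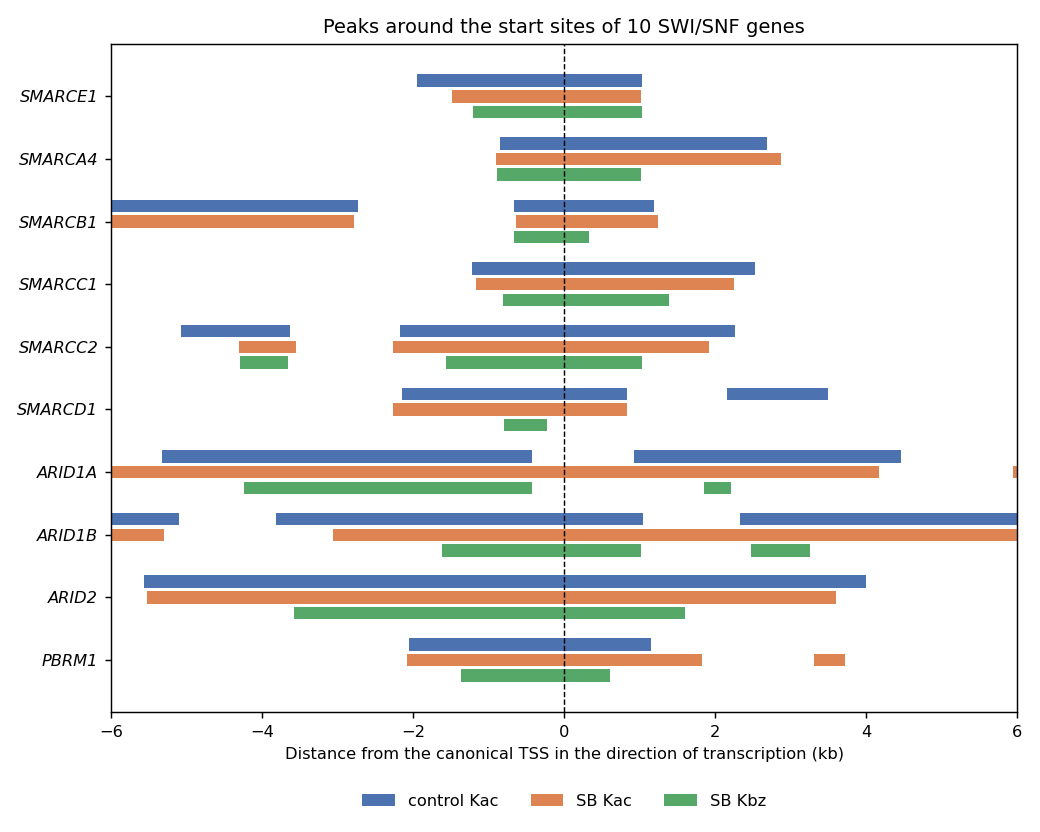
Peaks of control Kac, SB Kac and SB Kbz within 6 kb of the canonical TSS of 10 SWI/SNF genes, with the distance from the TSS in kb on the horizontal axis and transcription running to the right; bars that reach the frame go on beyond it. Bars cross the dashed TSS line in all 3 lists for 8 genes, while the Kbz bar of SMARCD1 ends 228 bp upstream of it and the control Kac and Kbz bars of ARID1A leave it uncovered.

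SMARCE1, the core subunit with a DNA-binding HMG domain, lies on chromosome 17, minus strand, from 40624962 to 40648654 (hg38). Its promoter peak reached from 40646782 to 40649762 in control Kac, from 40646802 to 40649299 in SB Kac and from 40646793 to 40649027 in SB Kbz. The folds were 7.47, 10.5 and 10.0, in that order. They ranked 95 of 70326, 3 of 63282 and 68 of 24308. The SB Kac rank is the value that brought this set forward. The peaks ranked next to it had folds of 11 above and 10.4 below. The control Kac and Kbz ranks were not used in that choice and stood at percentiles 99.9 and 99.7. How often a promoter with a top SB Kac peak ranks as high in the other lists was not examined. These ranks are therefore no independent support.

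The downstream edges of the SMARCE1 peaks nearly coincided, at 1036, 1016 and 1025 bp into the gene, while the upstream edges lay at 1944, 1481 and 1209 bp. Within 3 kb of the TSS the peaks covered 2981, 2498 and 2235 bp, and Kbz took up 89.1% of the SB Kac territory. This was the largest such share among the 10 genes, whose median was 51.7%, against 59.8% over protein-coding genes with both marks. A non-coding gene on the opposite strand starts 212 bp upstream, inside all 3 peaks, so the marks cannot be assigned to either gene alone. The only other peaks of the window were a control Kac and an SB Kac peak beyond the 3′ end, 350 and 414 bp long, which overlapped each other but no Kbz peak. The promoter coverage stood at percentiles 70.2, 60 and 84.8 of protein-coding genes. No other peak lay in the 23.7 kb body of SMARCE1.

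The genes with the pattern most like SMARCE1 were sought by the largest difference in percentile over the 3 lists, among 11977 other protein-coding genes with a promoter peak in each list. They were MRPL19 (chromosome 2), MPZL3 (chromosome 11) and NUP205 (chromosome 7), which stayed within 0.0521, 0.0640 and 0.140 percentile points. MRPL19 ranked 80, 36 and 66 in control Kac, SB Kac and Kbz, MPZL3 50, 13 and 57, and NUP205 154, 10 and 34. Likeness over 3 values only means that these promoters stood near the top of each list.

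PBRM1, the PBAF subunit with a series of bromodomains, had the second highest Kbz fold of the set. It lies on chromosome 3, minus strand, from 52545352 to 52685917. The promoter peak had a fold of 4.97 with control Kac, 6.60 with SB Kac and 8.96 with Kbz. These stood at percentiles 93.1, 97.7 and 99.2 and at ranks 4848, 1438 and 184. By the strongest peak within 3 kb of the TSS, it was the only gene of the 10 whose Kbz percentile exceeded its SB Kac percentile. In the other 9 the Kbz percentile was lower, as in 92.1% of 12028 protein-coding genes with both peaks. The Kbz peak, 1974 bp long, lay inside the SB Kac peak of 3910 bp and took up 50.5% of it. GNL3, a protein-coding gene on the opposite strand that encodes a nucleolar GTP-binding protein, starts 119 bp from the PBRM1 TSS, and all 3 peaks covered both starts. Besides the promoter, 2 SB Kac peaks of low rank (38540 and 47738) lay in the gene, with neither control Kac nor Kbz.

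ARID2, the DNA-binding subunit of PBAF on chromosome 12 (plus strand, 45729706 to 45908040), carried a long domain. The peak over its TSS measured 9559 bp with control Kac, 9120 bp with SB Kac and 5174 bp with Kbz. In control Kac and Kbz these were the longest promoter peaks of the set, while in SB Kac those of ARID1A and ARID1B were longer. The folds were 4.45, 5.27 and 4.63, at percentiles 86.9, 91.4 and 68.4. Kac covered all 6001 positions within 3 kb of the TSS in both conditions, and Kbz covered 4601 of them, which stood at percentile 99.3 of protein-coding genes. Non-coding genes on the opposite strand start 942 and 1846 bp upstream, under all 3 marks. In the 178 kb of ARID2 there was 1 further peak, of SB Kac only, 45379 bp downstream of the TSS.

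**Figure D2:**
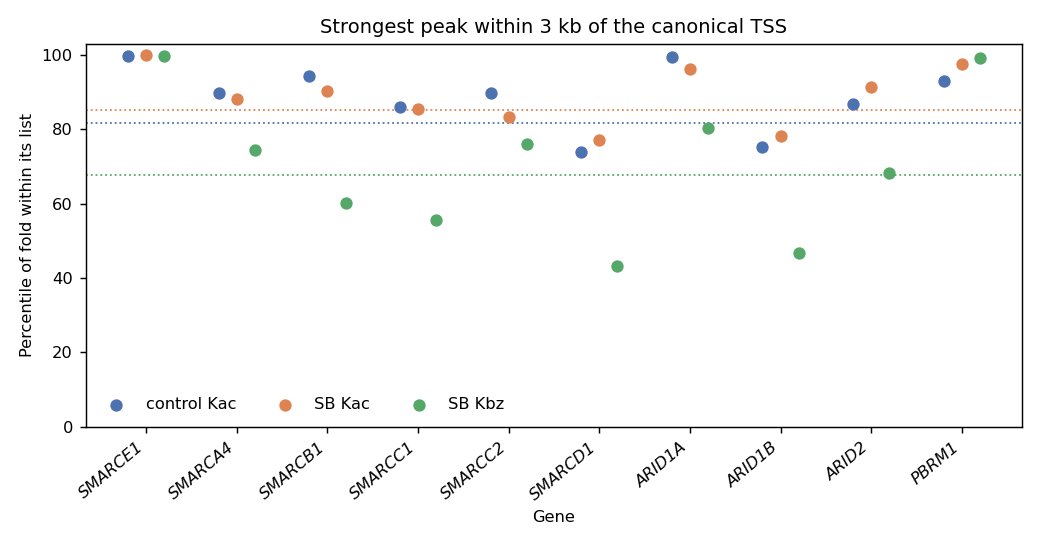
Percentile of fold within its list for the strongest peak within 3 kb of the canonical TSS, for 10 SWI/SNF genes in control Kac, SB Kac and SB Kbz, 1 point per gene and list (1 library each, so no error bars). Dotted lines are the medians of protein-coding genes with such a peak (81.8, 85.3 and 67.7). SMARCE1 is at the top in all lists, PBRM1 has its highest point in Kbz, and SMARCD1 and ARID1B are lowest in each list.

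SMARCA4, the catalytic subunit, lies on chromosome 19, plus strand, from 10960932 to 11079426. Its promoter peak had folds of 4.66 with control Kac, 4.87 with SB Kac and 4.95 with Kbz, at percentiles 89.9, 88.2 and 74.6. The Kac peaks were 3533 and 3777 bp long and extended 2686 and 2868 bp into the gene, whereas the Kbz peak was 1913 bp long and extended 1020 bp. The peaks began within a short distance of each other upstream, at 846, 908 and 892 bp. Kbz thus occupied the upstream part of an acetylated stretch that went further into the gene. Along the gene and its flanks there were 5 further control Kac and 4 further SB Kac peaks, none with Kbz. Of these, 2 control Kac peaks and 1 SB Kac peak had no counterpart in the other Kac list.

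SMARCB1, a core subunit that contacts the nucleosome, and SMARCC1 and SMARCC2, paralogous scaffold subunits, also had Kbz that reached less far into the gene than Kac. Over protein-coding genes the strongest Kbz promoter peak was likewise shorter. Its median length was 1642 bp, against 2561 bp with control Kac and 2682 bp with SB Kac. At SMARCB1 (chromosome 22, plus strand, 23786931 to 23838009) the promoter folds were 5.14 with control Kac, 5.14 with SB Kac and 4.29 with Kbz, at percentiles 94.4, 90.4 and 60.1. The peaks extended 1190, 1244 and 325 bp into the gene. At SMARCC1 (chromosome 3, minus strand, 47585269 to 47782106) the folds were 4.39, 4.59 and 4.12, at percentiles 86.0, 85.5 and 55.6, and the peaks extended 2524, 2242 and 1388 bp. Its body of 197 kb held 2 weak control Kac peaks and 1 weak SB Kac peak, with no overlap between the conditions.

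At SMARCC2 (chromosome 12, minus strand, 56162359 to 56189567) the promoter folds were 4.66 with control Kac, 4.41 with SB Kac and 5.03 with Kbz, at percentiles 89.8, 83.4 and 76.0. The peaks extended 2265, 1922 and 1032 bp into the gene. The gene had 2 more Kbz peaks in its flanks. The one upstream, from 56193134 to 56193777, began 3651 bp from the TSS and had a fold of 7.48, higher than that of the promoter peak, and it ranked 767 of 24308. Kac lay over it in both conditions, at ranks 5841 in control and 7908 in SB. Its percentile was 96.8 with Kbz, against 91.7 with control Kac and 87.5 with SB Kac. As at the PBRM1 promoter, the Kbz percentile was the higher, though outside the 3 kb. The one beyond the 3′ end covered the TSS of MYL6, a gene for a myosin light chain, and so belonged to the rule's flank rather than to SMARCC2. SMARCC2 and SMARCC1 therefore had promoter marks of like rank in Kac, but 3 Kbz peaks in the one window and 1 in the other.

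SMARCD1, a core subunit that links the complex to transcription factors, had the weakest promoter marks of the set. It lies on chromosome 12, plus strand, from 50085200 to 50100707. The folds were 3.78 with control Kac, 3.96 with SB Kac and 3.72 with Kbz, at percentiles 74.0, 77.1 and 43.3. Their −log10 q was 4.90, 6.01 and 3.98, so the control Kac and Kbz peaks would be lost at a threshold of 5. Both Kac peaks ended at the same position, 829 bp into the gene. The Kbz peak, from 50084552 to 50085114, was only 563 bp long and ended 228 bp upstream of the TSS. Kbz took up 18.2% of the SB Kac territory, the lowest share among the 10 genes. A control Kac peak of low rank (53530), inside the gene from 50087505 to 50088836, had no SB Kac peak. The window also held a Kac peak at the start of GPD1, a neighbouring gene for a glycerol-3-phosphate dehydrogenase, in both conditions.

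ARID1A, a large DNA-binding subunit of canonical BAF, lies on chromosome 1, plus strand, from 26693236 to 26782104, with its canonical TSS at 26696015. In control cells the TSS lay in a gap between a Kac peak from 26690685 to 26695592 and another from 26696936 to 26700478. Their folds were 6.91 and 3.54, at ranks 266 and 23203. In SB cells a single Kac peak of 11111 bp, from 26689068 to 26700178, ran across the gap, with a fold of 6.16 and rank 2331. The SB fold is the mean over this longer region and so is not the like of the control fold. Kbz left the gap as in control Kac: its peaks reached from 26691773 to 26695583 (3811 bp, fold 5.30, rank 4786) and from 26697861 to 26698220 (360 bp, fold 4.30, rank 9619). Whether the acetylation in the gap differed between conditions cannot be read from peak edges, and the lists hold no signal for positions outside peaks.

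The control Kac and Kbz peaks just upstream of the canonical ARID1A TSS both take in the first base of the annotated gene, 26693236. They also take in the starts of 2 non-coding genes, 1884 and 3429 bp upstream. The gap thus concerns the canonical TSS, 1 of 16 annotated for the gene. Further into the gene, 5 SB Kac peaks had no control Kac peak. Of these, 2 overlapped Kbz peaks, from 26706263 to 26706563 and from 26722950 to 26723465, which were 301 and 516 bp long and had folds of 3.27 and 3.32. They were the only Kbz peaks of the 20 that had no control Kac peak. The second of the SB Kac peaks beneath them had a fold of 3.51 and the first a fold of 2.69, at percentiles 68.5 and 29.6. One control Kac peak of the gene, from 26711530 to 26712370, had no SB Kac peak. The SB Kac peaks with neither control Kac nor Kbz stood at percentiles 23, 7.22 and 10.5, with −log10 q of 2.07, 1.87 and 1.52. ARID1A thus held more SB Kac than control Kac peaks (8 against 6) and 21.8 kb of its window was covered against 16.1 kb. The surplus of peaks rests in part on these weak calls.

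ARID1B, the paralogue of ARID1A, differed from the rest in the number of its peaks. It spans 435 kb on chromosome 6, plus strand, from 156776020 to 157210779. Control Kac had 49 peaks there, SB Kac 47 and Kbz 6. This equals 11, 10.6 and 1.35 peaks per 100 kb of the window. Among 1501 protein-coding genes of at least 200 kb, the medians were 1.40, 1.36 and 0.401, and ARID1B ranked 14, 19 and 143. Among the 98 such genes of chromosome 6 it ranked 1, 2 and 11. Kac peaks covered 86.1 kb in control and 83.6 kb in SB cells, or 19.4% and 18.8% of the window, and Kbz covered 6.65 kb or 1.49%. Peaks of all 3 lists were thus denser in ARID1B than in the median long gene.

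At the ARID1B promoter the strongest peak had a fold of 3.83 with control Kac, 4.03 with SB Kac and 3.82 with Kbz, at percentiles 75.2, 78.2 and 46.8. The SB Kac peak of 9762 bp spanned a gap between control Kac peaks of 4850 and 4500 bp, of which the former covered the TSS and the latter was the stronger. The Kbz peaks along the gene were ordered by distance as follows. The first covered the TSS, and the others began 2476, 14129, 92748, 243758 and 330320 bp downstream. Their folds were 3.82, 3.74, 2.97, 3.19, 3.49 and 3.30, so the peak at the TSS was the strongest and the spread was narrow. All 6 overlapped Kac of both conditions, and the SB Kac peaks beneath them, 5 in number, had folds between 3.94 and 4.45.

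The peaks of ARID1B had low folds for their statistical strength. Their median fold percentile was 17.7 (control Kac), 22.8 (SB Kac) and 31.5 (Kbz), while their median percentile of −log10 q was 44.1, 50.9 and 46.8. The percentile of −log10 q exceeded that of fold in 49 of 49, 47 of 47 and 6 of 6 peaks. The median excess was 16.6, 19 and 14.7 percentile points, against -2.18, -1.89 and -1.11 for the peaks of the other 9 genes. Over all peaks of chromosome 6 it was 0.0768, 0.0478 and -0.691, and over whole lists -1.51, -1.29 and -1.50. In each list the peaks of ARID1B thus stood higher by −log10 q than by fold, which was not so for the medians of the other genes of the set.

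**Figure D3:**
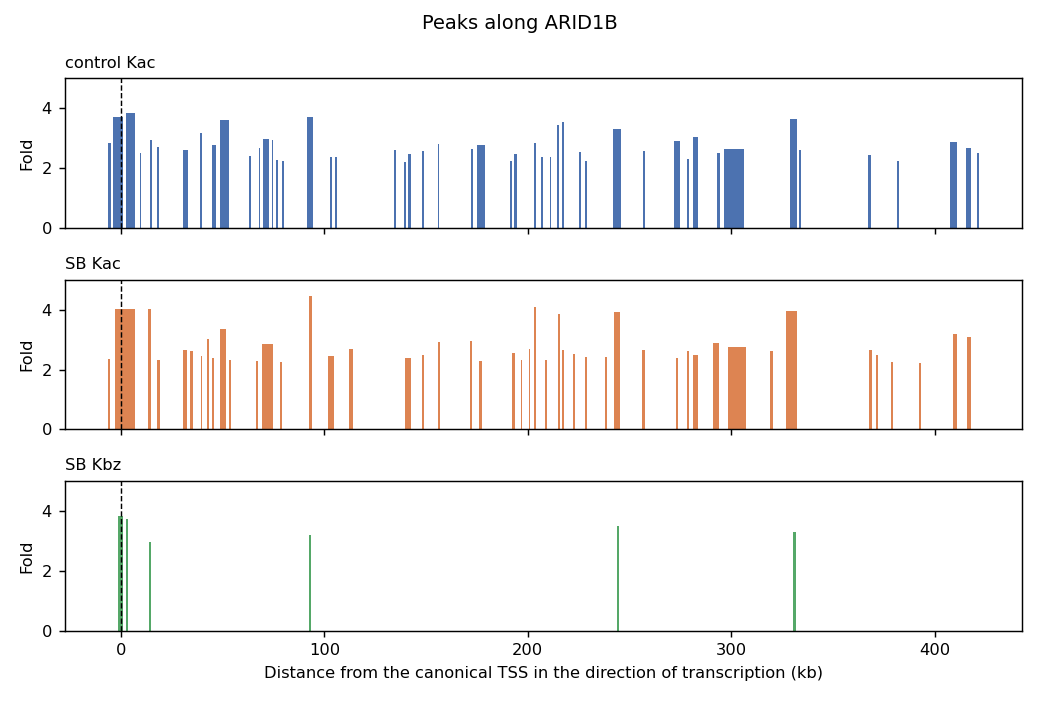
Fold of each peak (vertical axis, linear ratio over background) along ARID1B in control Kac, SB Kac and SB Kbz, by distance in kb from the canonical TSS (dashed line). Bars have the width of the peak, and the narrowest were widened for visibility. Kac peaks run along the whole gene in both conditions (49 and 47), while the 6 Kbz peaks sit at the promoter and at 4 sites within the gene.

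Peaks shared between conditions were then counted over all 10 genes. Of the 80 control Kac peaks 22 had no SB Kac peak, or 27.5% (18.9 to 38.1, Wilson 95% interval), against 35.3% of the whole list. Of the 79 SB Kac peaks 26 had no control Kac peak, or 32.9% (23.6 to 43.9), against 27.5% of the whole list. Without ARID1B these numbers were 9 of 31, or 29.0% (16.1 to 46.6), and 12 of 32, or 37.5% (22.9 to 54.7). Both background shares lay inside the intervals, which cover counting error only and treat peaks as independent, though many lie in ARID1B. Unshared peaks of these genes stood lower in fold than shared ones, and 13 (control Kac) and 14 (SB Kac) of them lay in ARID1B. The 22 control Kac peaks had a median percentile of 14.2 and reached at most 56.3, against a median of 43.6 for the 58 shared ones. The 26 SB Kac peaks had a median of 22.2 and reached at most 68.5, against 46.3 for the 53 shared ones. The same contrast was not examined over whole lists, so it cannot be called a trait of this set.

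Distal peaks, those more than 3 kb from the TSS of any annotated transcript, numbered 44 (control Kac), 41 (SB Kac) and 5 (Kbz). They were mostly intronic, at 35, 34 and 4, and ARID1B held 37, 32 and 3 of them. SMARCB1, SMARCC2 and SMARCD1 had none in any list. Of the distal control Kac peaks 34.1% (21.9 to 48.9) had no SB Kac peak, against 44.7% of all distal control Kac peaks. Of the distal SB Kac peaks 39.0% (25.7 to 54.3) had no control Kac peak, against 34.5%. Both background shares lay inside these intervals. Without ARID1B only 7 and 9 distal peaks were left, of which 3 and 6 were unshared.

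All 20 Kbz peaks overlapped SB Kac (83.9 to 100), beside 93.7% of the whole Kbz list. Of the 20, 18 or 90.0% (69.9 to 97.2) overlapped control Kac, beside 93.3%. In the other direction 19 of the 79 SB Kac peaks overlapped Kbz, or 24.1% (16.0 to 34.5), against 33.8% of the whole list. In ARID1B it was 5 of 47, or 10.6% (4.63 to 22.6), and in the other 9 genes 14 of 32, or 43.8% (28.2 to 60.7). Most peaks of ARID1B were distal, and among distal peaks alone the numbers were 3 of 32 in ARID1B, or 9.38% (3.24 to 24.2), and 1 of 9 in the other genes, or 11.1% (1.99 to 43.5). Among distal SB Kac peaks 4 of 41 had Kbz, or 9.76% (3.86 to 22.5), against 18.8% of all distal SB Kac peaks, which lies inside the interval. Near a TSS it was 15 of 38, or 39.5% (25.6 to 55.3), against 52.9% of all such SB Kac peaks, also inside the interval. Of the 20 Kbz peaks 15 or 75.0% (53.1 to 88.8) lay near a TSS, against 64.0% of the whole list, also inside the interval. The interval of all ARID1B peaks did not hold the 33.8% of the whole list. Because the intervals treat peaks as independent, they describe the counts and are no test.

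**Figure D4:**
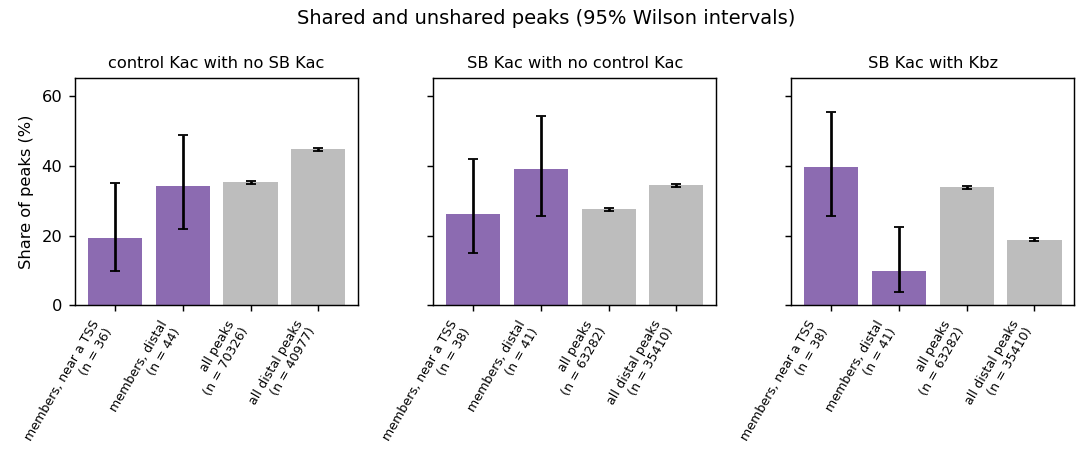
Share of peaks in percent (bars from 0, with 95% Wilson intervals for counting error) for Kac peaks of either condition without a Kac peak in the other, and for SB Kac peaks with Kbz, in the windows of the 10 SWI/SNF genes and in whole lists. The intervals of the distal peaks (34.1%, 39.0% and 9.76%) hold the shares of all distal peaks (44.7%, 34.5% and 18.8%). The bars of the 10 genes near a TSS (19.4%, 26.3% and 39.5%) have no like bar for whole lists. Among all peaks near a TSS the shares were 22.1%, 18.6% and 52.9%.

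Within 3 kb of the TSS, Kbz covered more bases upstream than downstream in 8 of the 10 genes, and more downstream in SMARCA4 and SMARCC1. Among protein-coding genes with a Kbz promoter peak 49.6% had more upstream. Control Kac covered more upstream in 5 genes and more downstream in 4, beside 46.2% upstream among protein-coding genes. SB Kac covered more upstream in 4 and more downstream in 3, beside 40.6%. In the remaining genes Kac filled the 3 kb on both sides, so this measure could show no lean. They were ARID2 with control Kac, and ARID1A, ARID1B and ARID2 with SB Kac. The median length of the strongest promoter peak was 3640 bp (control Kac), 3844 bp (SB Kac) and 2218 bp (Kbz), against 2561, 2682 and 1642 bp over protein-coding genes with such a peak. The bases shared by both Kac lists made up between 75.7% (SMARCD1) and 100% (ARID2) of those covered by either, with a median of 87.0%, against 75.1% over protein-coding genes. The percentile of fold was higher in SB Kac than in control Kac in 5 genes (SMARCE1, SMARCD1, ARID1B, ARID2 and PBRM1) and lower in the other 5. Over 13894 protein-coding genes it was higher in 62.2%. SMARCE1 is counted among the 5 through the SB Kac value by which the set was selected.

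By role, SMARCA4 and the 5 core subunit genes spanned percentiles 74.0 to 99.9 in control Kac and 43.3 to 99.7 in Kbz. ARID1A and ARID1B stood far apart, at 99.6 and 75.2 in control Kac and at 80.3 and 46.8 in Kbz. The PBAF genes ARID2 and PBRM1 lay at 86.9 and 93.1 in control Kac and at 68.4 and 99.2 in Kbz. The ranges of these 3 groups overlapped in each list.

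The other subunits were taken from a list of 21 genes, which holds paralogues of the genes above, actin-related and accessory subunits, and the subunits of the non-canonical complex. A promoter peak was present in 20 of them with control Kac, 20 with SB Kac and 18 with Kbz, beside the 72.9%, 71.9% and 60.3% of protein-coding genes. Their median percentiles were 80.1, 86.4 and 71.8. ACTL6B, an actin-related subunit of neurons, had none in any list. SMARCA2, the alternative ATPase to SMARCA4, and BRD7, a bromodomain subunit of PBAF, had Kac in both conditions and no Kbz. SMARCA2 stood at percentiles 44.2 in control Kac and 69.8 in SB Kac, where SMARCA4 stood at 89.9 and 88.2. BRD7 stood at 26.6 and 45.0. The highest Kbz percentile on this list, 99.6 at rank 108, belonged to BICRAL, a subunit of the non-canonical complex, and PHF10 of PBAF followed at 97.1. Neither passed SMARCE1, at rank 68.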

How the data were processed

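The deposited peak lists of 3 ChIP-seq libraries from cells labelled HepG2 were used. According to the methods and the submitters' processing notes, the authors aligned reads to hg38 with Bowtie2 2.2.6, kept unique reads, removed duplicates with SAMtools 0.1.19 and called broad peaks per library with MACS2 2.1.1. The background track of the call is not given in the sources used here. The deposited fold is a linear ratio over background. The deposited −log10 p and −log10 q are p-values and q-values on a −log10 scale, and the deposited integer score was not used. No peak had a −log10 q under 1.31. The FDR that the paper gives for peak calling equals a −log10 q of 2, so the lists also hold peaks weaker than that. Lists carry no read totals, so depth was unknown and limits every count of peaks. Peaks on 24 chromosomes were kept as given, and 3 control Kac peaks elsewhere were left out.

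Genes came from GENCODE 44. In a check of the build, 0 peaks passed the end of their chromosome and 7 of 7 RefSeq windows were identical to hg38. Overlap meant at least 1 bp. Intervals are Wilson 95% intervals. With 1 library per group no test was made. All 10 genes were named, and the other subunits, markers and the measure of likeness followed fixed lists and rules. The genes and lists were chosen with earlier results of these data known. Alternatives were −log10 q of at least 5 or 2, the 15000 peaks of lowest p in each list, flanks of 0 or 10 kb, a 1 kb promoter, all annotated TSSs, an overlap of 50% and ranking by −log10 q. Leaving out ARID1B was chosen after seeing the data. Python 3.11.15, numpy 2.4.6, scipy 1.17.1 and matplotlib 3.10.9 were used, and overlaps were checked on simulated intervals.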

Additional observations from a re-analysis of the deposited data

How the results depend on the processing

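The 11 counts were recomputed 62 times with 1 choice changed, and 45 values stayed within 1.5 times of the original, while 17 moved further. No paired analysis was possible because the groups hold 1 library apiece, and no replicate could be left out.

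Promoter peaks stayed in at least 9 of the 10 genes in each list under all alternatives run. SMARCD1 was the gene that lost its peak, in control Kac and Kbz once a −log10 q of 5 was required, and in both Kac lists when these were cut to 15000 peaks. The number of genes with the TSS inside a peak of all 3 lists stayed at 8 under the thresholds tried. Counts over whole windows depended on the threshold, since fewer peaks passed. At a −log10 q of at least 5 there were 24 control Kac, 22 SB Kac and 12 Kbz peaks, 12 SB Kac peaks with Kbz, and 3 control Kac and 3 SB Kac peaks without the other. Kbz was then at 11 of the 21 other subunit genes. With 15000 peaks per list there were 18 control Kac and 18 SB Kac peaks, with 2 and 4 unshared. With an overlap of 50% of the peak, 9 SB Kac peaks had Kbz and 36 control Kac peaks had no SB Kac peak; the cause was not tested. Without ARID1B there were 31 control Kac and 32 SB Kac peaks, 9 and 12 of them unshared. The SB Kac percentile of SMARCE1, by which the set was selected, is not among these counts and supports nothing: it was 99.99 at a −log10 q of 5 and 99.98 in the list of 15000.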
